A study of Mus musculus with 12 samples.

Results

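The transcripts described here encode the proteins that make, hold back and receive transforming growth factor beta (TGF-β): the ligands *Tgfb1*, *Tgfb2* and *Tgfb3*, the receptors *Tgfbr1*, *Tgfbr2* and *Tgfbr3*, and the latent TGF-β binding proteins (LTBPs) *Ltbp1*, *Ltbp2*, *Ltbp3* and *Ltbp4*. They were chosen by gene symbol. All 10 were found among the 39179 genes of the count table, and all 10 passed the filter on low counts in every comparison, although *Ltbp2* had fewer than 10 counts in each library of PSCs grown alone and so passed through the co-cultured PSCs, where it was high.

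RNA was sequenced from mouse pancreatic stellate cells (PSCs), the fibroblast-like cells of the pancreas, labelled as C57BL/6. The PSCs, an immortalised line that carries mCherry, were kept for 72 h without other cells (mono-PSCs), with pancreatic cancer cells (PCCs) that carry EGFP (2W-PSCs), or with those PCCs and with macrophages (MØs) that carry TagBFP (3W-PSCs). The PCCs were a mouse line whose routine culture medium held doxycycline, and the MØs were the mouse macrophage line RAW264.7, so each cell type was represented by 1 line. The cultures differed in the cells they held and not in any stated treatment. All were kept in a medium low in serum. The total cell number was the same in each condition, so the number of PSCs plated need not have been. Before lysis the PSCs were sorted as cells positive for mCherry and negative for EGFP and TagBFP. Each culture had 4 libraries, described by the submitters as biological replicates.

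TGF-β is secreted in a latent form. The ligand stays bound to its own propeptide. An LTBP joins that complex by a disulphide bond and tethers it to fibrillin and fibronectin fibres of the matrix. Integrins, proteases or thrombospondin-1 can release the ligand from there. LTBP1, LTBP3 and, weakly, LTBP4 bind the latent complex, whereas LTBP2 does not and is known as a partner of fibrillin microfibrils. Free ligand joins the type II receptor TGFBR2, which phosphorylates the type I receptor TGFBR1 and so the transcription factors SMAD2 and SMAD3. The type III receptor TGFBR3, betaglycan, presents ligand, TGF-β2 above all, to TGFBR2. In the pancreas TGF-β is known for turning PSCs into contractile, matrix-forming myofibroblasts.

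The promoters of the 3 LTBPs that were higher in co-culture and of *Tgfb2*, the ligand that was lower in 3W-PSCs, are shown because these genes carry the differences described next. They run from 250 bases before to 50 bases after the start of the RefSeq transcript on GRCm38.p6. *Ltbp1* has 2 such starts, which counts taken at the 3′ end of transcripts cannot tell apart. Capitals mark matches to the motifs searched.
Ltbp2 (chr12:84876442-84876741, minus strand): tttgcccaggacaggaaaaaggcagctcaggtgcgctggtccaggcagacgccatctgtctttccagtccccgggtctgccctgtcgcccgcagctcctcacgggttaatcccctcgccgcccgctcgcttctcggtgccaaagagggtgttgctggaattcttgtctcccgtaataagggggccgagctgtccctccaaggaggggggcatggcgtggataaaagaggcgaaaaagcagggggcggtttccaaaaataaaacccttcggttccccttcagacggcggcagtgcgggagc
Ltbp3 (chr19:5740650-5740949, plus strand): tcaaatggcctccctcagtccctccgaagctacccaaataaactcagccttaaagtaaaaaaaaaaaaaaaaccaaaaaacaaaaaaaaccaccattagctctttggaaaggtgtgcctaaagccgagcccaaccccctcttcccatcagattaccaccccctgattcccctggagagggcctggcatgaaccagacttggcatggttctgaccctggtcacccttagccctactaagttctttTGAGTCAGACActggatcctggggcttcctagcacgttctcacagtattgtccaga
Ltbp1, first start (chr17:75005279-75005578, plus strand): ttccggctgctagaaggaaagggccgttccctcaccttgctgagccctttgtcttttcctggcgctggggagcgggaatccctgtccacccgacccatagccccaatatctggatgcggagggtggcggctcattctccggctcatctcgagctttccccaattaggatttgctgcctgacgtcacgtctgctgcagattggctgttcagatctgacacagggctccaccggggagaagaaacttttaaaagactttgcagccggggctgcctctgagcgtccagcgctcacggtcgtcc
Ltbp1, second start (chr17:75178531-75178830, plus strand): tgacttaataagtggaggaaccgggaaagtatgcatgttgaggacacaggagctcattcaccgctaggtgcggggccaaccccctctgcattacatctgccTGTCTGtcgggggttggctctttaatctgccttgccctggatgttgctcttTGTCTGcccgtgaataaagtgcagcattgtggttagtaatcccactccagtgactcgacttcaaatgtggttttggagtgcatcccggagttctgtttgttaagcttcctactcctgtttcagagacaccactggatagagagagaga
Tgfb2 (chr1:186705940-186706239, minus strand): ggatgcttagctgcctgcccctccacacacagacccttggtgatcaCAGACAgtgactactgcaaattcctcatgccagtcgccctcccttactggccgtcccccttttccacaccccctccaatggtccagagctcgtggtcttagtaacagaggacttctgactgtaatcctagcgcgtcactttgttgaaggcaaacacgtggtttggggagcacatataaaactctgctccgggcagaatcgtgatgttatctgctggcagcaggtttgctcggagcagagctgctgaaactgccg

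The motifs were those of AP-1 (TGANTCA), STAT (TTCNNNGAA), the palindromic SMAD element (GTCTAGAC), its shorter form (CAGACA) and κB (GGANTTTCC), each read on both strands. RefSeq gave 12 promoters for 8 of the 10 genes, all but *Tgfb3* and *Tgfbr3*. Of all 32544 promoters of the same length, 7.79% held the AP-1 motif, 8.33% the STAT motif, 0.215% the SMAD palindrome, 20.9% CAGACA and 1.26% the κB motif. Among these genes the AP-1 motif was found in *Ltbp3* alone, where its last letters overlap a CAGACA. The latter was also found at the second start of *Ltbp1*, in *Tgfb2* and at the second start of *Tgfbr1*, and the κB motif in *Tgfbr2*. The *Ltbp2* promoter held none of the 5 motifs. A match is only a run of letters, and its absence says nothing of the factor.

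Total counts ranged from 4561817 to 8093368 per library. The libraries were made from the 3′ ends of polyadenylated RNA, so a count stands for a transcript whatever its length, and levels are given as CPM, the counts of a gene set to a common library total, scaled between libraries by TMM. Replicate 2 of the 2W-PSCs stood apart, with a Spearman correlation of 0.860 to 0.921 with the other 2W-PSC libraries, and results that change without it are given both ways. The summed level of 17 PSC and fibroblast markers was 12764 to 14496 CPM (mono-PSCs), 14478 to 21863 CPM (2W-PSCs) and 8236 to 9716 CPM (3W-PSCs). *Col1a1* (1433 to 3772 CPM) and *Vim* (1050 to 2040 CPM) were high in each library, whereas *Gfap* was at 0 in all of them and *Des* and *Lum* averaged under 2 CPM in each culture. Of the 14 tested in 3W-PSCs against 2W-PSCs, 9 fell, among them *Fap*, *Col3a1*, *S100a4* and *Sparc*, and 2, *Pdgfra* and *Pdpn*, rose. Of all 11513 genes tested, 4.95% were called lower and 5.73% higher. *Fap* passed the filter on low counts only through the 2W-PSC libraries, where it was high, and so had to differ. The summed level of 13 epithelial markers was 1.21 to 3.34 CPM (mono-PSCs), 75.9 to 150.8 CPM (2W-PSCs) and 54.5 to 93.4 CPM (3W-PSCs). Of the defining ones, *Epcam* had at most 3 counts in any library, whereas *Cdh1* averaged 0.583, 18.5 and 12.04 CPM and *Krt19* 0.461, 17.4 and 13.7 CPM. The 13 macrophage markers summed to 2.28 to 8.23 CPM, 3.21 to 10.8 CPM and 17.5 to 61.3 CPM, the highest value being that of 3W-PSC replicate 4. *Adgre1* was at 0 in all 12 libraries and *Ptprc* in all but 3W-PSC libraries, where it reached 20 counts, while *Lyz2* averaged 2.31, 1.21 and 5.19 CPM and *Csf1r* 0.0878, 2.35 and 2.31 CPM. The sort was set to leave out PCCs and MØs, and the part that their RNA or the lower PSC markers had in the differences described here was not tested. Moreover, in bulk RNA fewer cells of a type and less RNA per cell cannot be told apart.

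The LTBPs had the highest summed level of the 3 roles in each culture and, in *Ltbp2*, the largest fold change. Their sum was 97.8 ± 20.6 CPM (SD, n = 4) in mono-PSCs, 218 ± 18.1 CPM (2W-PSCs) and 360 ± 17.7 CPM (3W-PSCs), and the 3 cultures did not overlap. *Ltbp3* led the order of levels in mono-PSCs and 2W-PSCs, above *Ltbp1* without overlap. In mono-PSCs *Tgfb2* was above *Tgfbr3* and *Tgfb1* above *Ltbp2* without overlap, while the other neighbours in that order overlapped. In 3W-PSCs *Ltbp1* and *Ltbp3* stood together at the top with overlapping ranges, and *Ltbp2*, the lowest of the 10 in mono-PSCs, was the third.

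**Figure D1:**
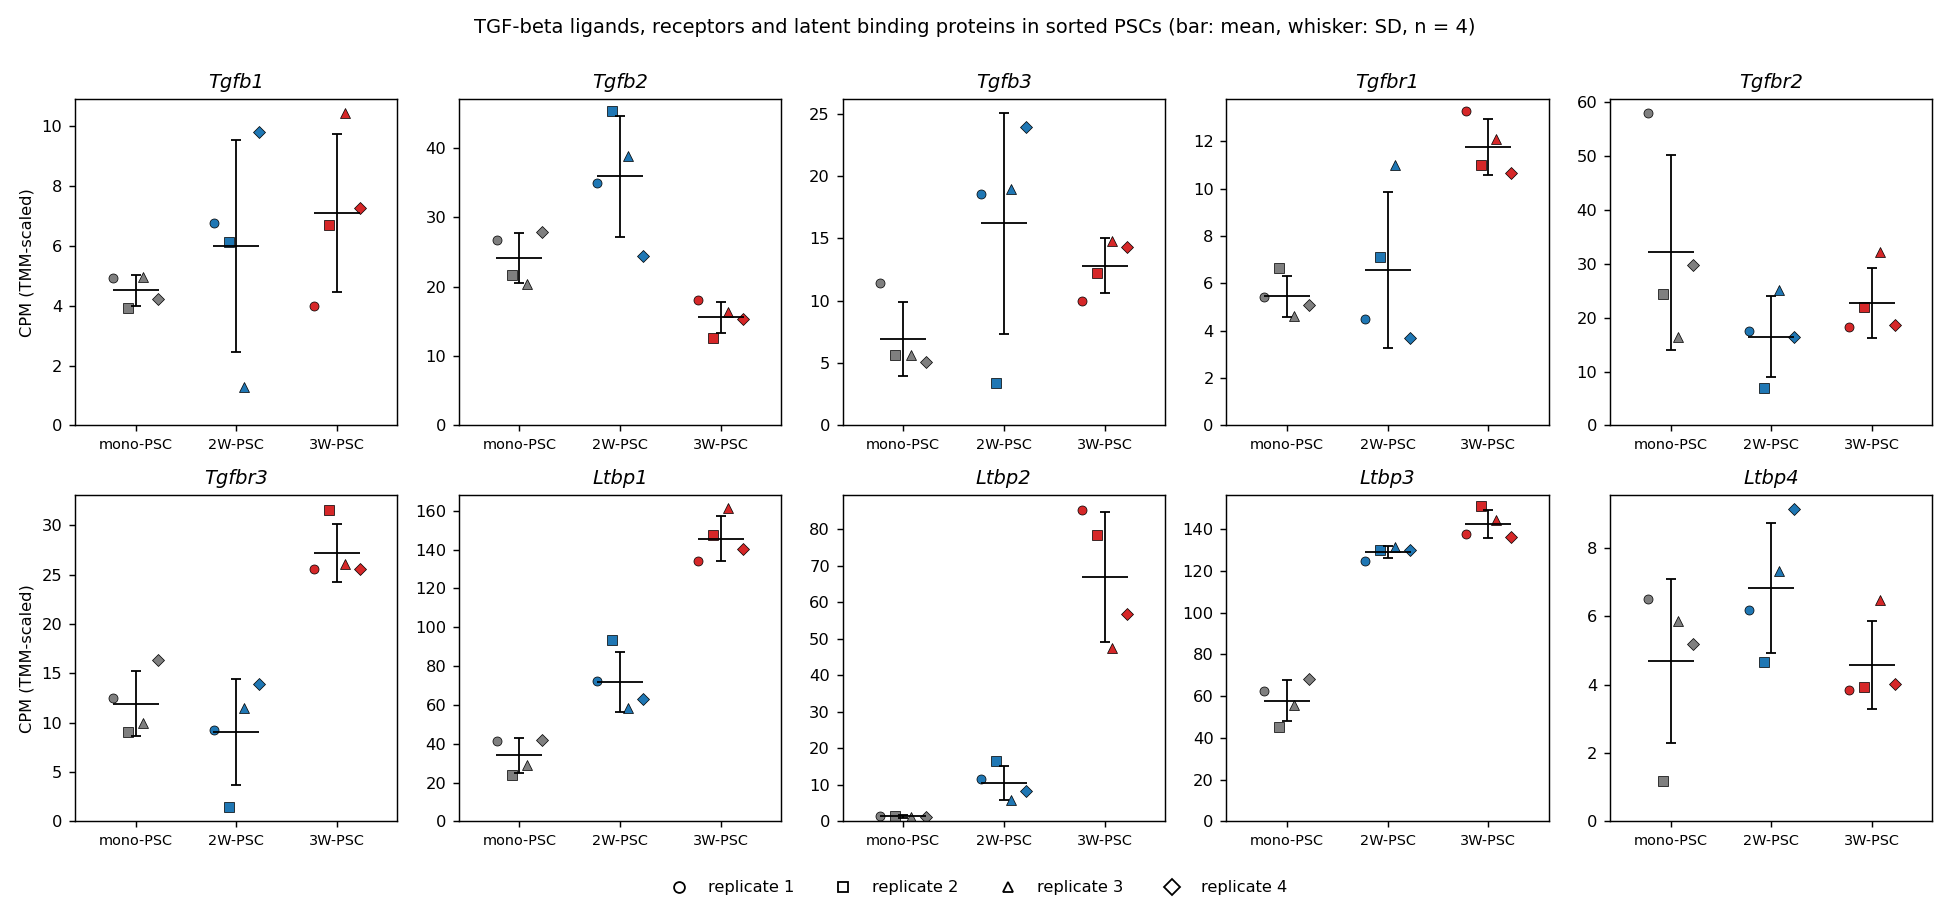
CPM (TMM-scaled, linear axis from 0) of the 10 genes in the 12 libraries. Each point is a library, with its shape giving the replicate number, and the bar and whiskers are the mean and SD of 4 libraries. *Ltbp2* lay at 1.07 to 1.58 CPM (mono-PSCs), 5.73 to 16.4 CPM (2W-PSCs) and 47.3 to 85.1 CPM (3W-PSCs).

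*Ltbp2* (ENSMUSG00000002020, minus strand, chr12:84783212-84876532 on GRCm38) encodes the LTBP that does not hold latent TGF-β. Its levels in replicates 1 to 4 were 1.58, 1.57, 1.07 and 1.09 CPM (mono-PSCs), 11.5, 16.4, 5.73 and 8.35 CPM (2W-PSCs) and 85.1, 78.5, 47.3 and 56.8 CPM (3W-PSCs). Every 2W-PSC library was above every mono-PSC library, and every 3W-PSC library above every 2W-PSC library. The mono-PSC values rest on 6 to 9 counts a library. *Ltbp2* rose by a log2 fold change of 2.99 (SE 0.450, edgeR quasi-likelihood test, Benjamini-Hochberg adjusted p = 0.00601) from mono-PSCs to 2W-PSCs, which is 7.94-fold. It rose again by 2.69 (SE 0.324, adjusted p = 5.52e-04), or 6.45-fold, in 3W-PSCs against 2W-PSCs. Between 3W-PSCs and mono-PSCs the log2 fold change was 5.66 (SE 0.281, adjusted p = 2.99e-10). These 3 comparisons share libraries and are not independent of each other. Against mono-PSCs, *Ltbp2* passed the filter on low counts only through the co-cultured PSCs, where it was high, and so had to differ. *Ltbp2* shares 764 exonic bases with *D030025P21Rik* on the opposite strand, none of them in its last 500 exonic bases. That gene had 0 to 6 counts in mono-PSCs, 0 to 11 counts in 2W-PSCs and 70 to 113 counts in 3W-PSCs, where *Ltbp2* had 372 to 679. The strand setting of the counting is not given in the sources used here, so reads in the shared bases may come from either gene.

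*Ltbp1* (ENSMUSG00000001870, plus strand, chr17:75005568-75392512) encodes the founding LTBP, which carries latent TGF-β to the matrix. It was measured at 41.3, 23.7, 28.9 and 42.0 CPM (mono-PSCs), at 72.1, 93.2, 58.4 and 63.1 CPM (2W-PSCs) and at 134, 147, 161 and 140 CPM (3W-PSCs). The cultures did not overlap. *Ltbp1* rose in 3W-PSCs against 2W-PSCs by a log2 fold change of 1.03 (SE 0.178, adjusted p = 0.00512) and against mono-PSCs by 2.09 (SE 0.186, adjusted p = 2.70e-07). Between 2W-PSCs and mono-PSCs its log2 fold change of 1.09 (SE 0.242) missed the threshold with an adjusted p of 0.0580. It passed in 4 of 15 other settings, without a filter (adjusted p = 0.0283), with all 12 libraries in the fit (0.00882), with DESeq2 (0.00525) and without 2W-PSC replicate 2 (log2 fold change 0.92, adjusted p = 0.0371), and in the others the adjusted p reached 0.204.

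*Ltbp3* (ENSMUSG00000024940, plus strand, chr19:5740904-5758532) encodes a further carrier of the latent ligand. Mono-PSCs held 62.3, 45.0, 55.6 and 68.2 CPM, 2W-PSCs 125, 130, 132 and 130 CPM, and 3W-PSCs 138, 151, 144 and 136 CPM. The step lay between mono-PSCs and the co-cultures. *Ltbp3* rose in 2W-PSCs against mono-PSCs (log2 fold change 1.17, SE 0.186, adjusted p = 0.00795) and in 3W-PSCs against mono-PSCs (1.29, SE 0.156, adjusted p = 9.29e-06). The difference of 3W-PSCs from 2W-PSCs was 0.14 on the log2 scale, with an approximate 95% interval of -0.12 to 0.41 and an adjusted p of 0.539. On mean CPM the 4 libraries of each culture did not overlap, which gives the smallest p that a two-sided exact permutation test of 4 against 4 allows, 0.0286.

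*Ltbp4* (ENSMUSG00000040488, minus strand, chr7:27305136-27337692), whose product binds the latent complex weakly and serves elastic fibre assembly, was low. It ranged from 1.18 to 6.49 CPM (mono-PSCs), from 4.66 to 9.15 CPM (2W-PSCs) and from 3.85 to 6.49 CPM (3W-PSCs), on 6 to 57 counts. The cultures overlapped, and no comparison passed the test. The approximate 95% interval of the log2 fold change between 3W-PSCs and mono-PSCs ran from -0.90 to 0.80, and a difference within it was not detectable at this depth and spread.

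The ligands differed among themselves in direction. Their summed level was 35.6 ± 5.66 CPM (mono-PSCs), 58.1 ± 2.27 CPM (2W-PSCs) and 35.5 ± 4.67 CPM (3W-PSCs) (SD, n = 4), and no 2W-PSC library overlapped either of the other cultures. *Tgfb2* was the most abundant ligand in each culture. In 3W-PSCs its range met that of *Tgfb3*.

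*Tgfb2* (ENSMUSG00000039239, minus strand, chr1:186622792-186705989) encodes the ligand that depends most on betaglycan. Its levels were 26.7, 21.7, 20.4 and 27.8 CPM (mono-PSCs), 34.9, 45.4, 38.85 and 24.4 CPM (2W-PSCs) and 18.1, 12.6, 16.3 and 15.3 CPM (3W-PSCs). The 3W-PSC libraries were below all others, whereas 2W-PSC replicate 4 lay within the mono-PSC range. *Tgfb2* fell in 3W-PSCs against 2W-PSCs by 1.20 on the log2 scale (SE 0.229, adjusted p = 0.00793), and passed under 15 other settings but not with glmTreat, which tests for more than a 2-fold change (adjusted p = 1.0). Against mono-PSCs it fell by 0.64 (SE 0.205, adjusted p = 0.0275). That call was lost without mono-PSC replicate 4, 3W-PSC replicate 2 or 3W-PSC replicate 4 (adjusted p = 0.0818, 0.0990 and 0.0664) and in a fit of all 12 libraries (0.0577). In 2W-PSCs against mono-PSCs the log2 fold change of 0.58 (SE 0.241) did not pass (adjusted p = 0.561).

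*Tgfb3* (ENSMUSG00000021253, minus strand, chr12:86056745-86079041) encodes the third ligand, which signals through the same receptors. It was at 11.4, 5.68, 5.68 and 5.08 CPM (mono-PSCs), at 18.6, 3.43, 18.9 and 23.9 CPM (2W-PSCs) and at 9.96, 12.3, 14.8 and 14.3 CPM (3W-PSCs). Replicate 2 of the 2W-PSCs lay below every other library, and 3 of 4 2W-PSC libraries lay above all others. The 2W-PSC against mono-PSC log2 fold change was 1.24 (SE 0.486, adjusted p = 0.486), and 1.56 with an adjusted p of 0.0144 without 2W-PSC replicate 2. Without that library *Tgfb3* also fell in 3W-PSCs against 2W-PSCs, by 0.67 (adjusted p = 0.0437), whereas with it the log2 fold change was -0.35 (SE 0.426, adjusted p = 0.652). Against mono-PSCs *Tgfb3* rose in 3W-PSCs by 0.88 (SE 0.297, adjusted p = 0.0364), although the ranges overlapped. That call did not hold in 6 of the 8 fits that left out 1 library, the adjusted p being 0.0815, 0.0911 and 0.1001 without mono-PSC replicates 2, 3 and 4 and 0.0665, 0.0899 and 0.0878 without 3W-PSC replicates 2, 3 and 4. In a fit of all 12 libraries it was lost as well (adjusted p = 0.1692).

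*Tgfb1* (ENSMUSG00000002603, plus strand, chr7:25687002-25705077), the ligand best known in fibrosis, was low in these PSCs. It had 4.92, 3.92, 4.97 and 4.23 CPM (mono-PSCs), 6.76, 6.13, 1.27 and 9.79 CPM (2W-PSCs) and 3.98, 6.71, 10.4 and 7.27 CPM (3W-PSCs), on 8 to 82 counts. The cultures overlapped in each comparison. Between 3W-PSCs and mono-PSCs its log2 fold change was 0.65 (SE 0.345, adjusted p = 0.179), with an approximate 95% interval of -0.03 to 1.32.

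**Figure D2:**
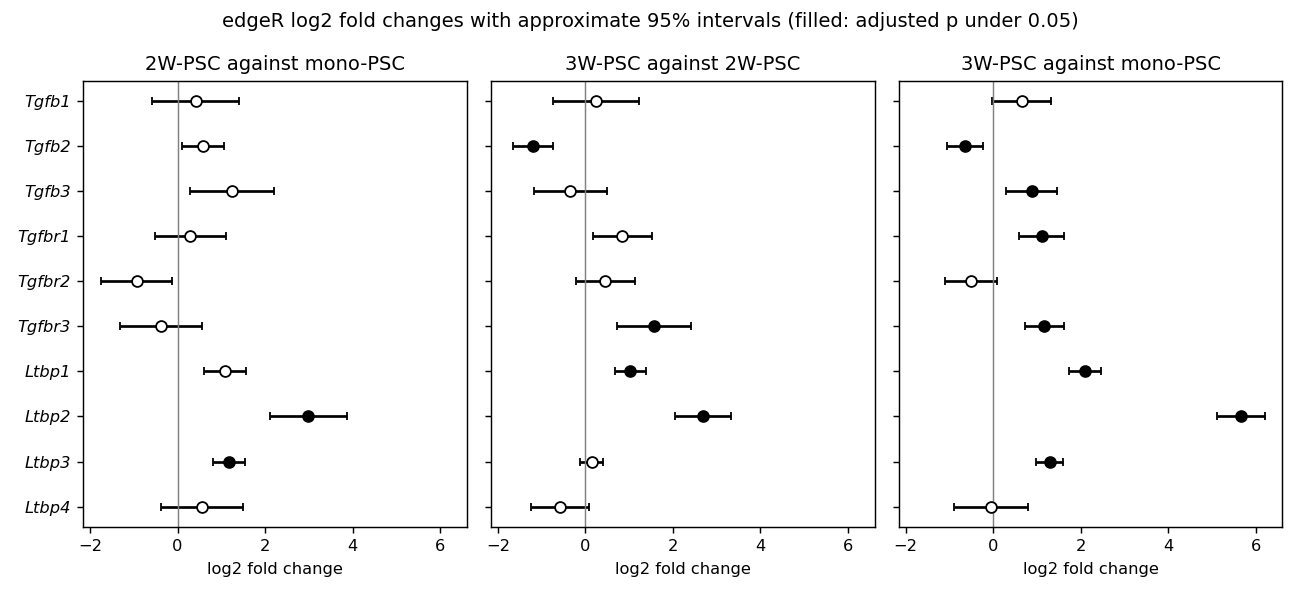
Log2 fold change (x axis) of the 10 genes in the 3 comparisons, with approximate 95% intervals from edgeR. Filled points passed an adjusted p of 0.05, which were 2, 4 and 7 genes from left to right, and *Ltbp2* lay farthest from 0 in each panel.

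Among the receptors, *Tgfbr1* and *Tgfbr3* were higher in 3W-PSCs and *Tgfbr2* was not. *Tgfbr3* (ENSMUSG00000029287, minus strand, chr5:107106570-107289629), betaglycan, was at 12.5, 9.01, 9.94 and 16.3 CPM (mono-PSCs), at 9.29, 1.47, 11.5 and 14.0 CPM (2W-PSCs) and at 25.6, 31.6, 26.1 and 25.6 CPM (3W-PSCs). Each 3W-PSC library was above all 8 others, while mono-PSCs and 2W-PSCs overlapped. *Tgfbr3* rose in 3W-PSCs against mono-PSCs (log2 fold change 1.17, SE 0.223, adjusted p = 8.37e-04). Against 2W-PSCs it rose by 1.57 (SE 0.433, adjusted p = 0.0417). Without 2W-PSC replicate 2, where *Tgfbr3* had 6 counts, that value was 1.24 with an adjusted p of 8.51e-04. The call was lost when any of 2W-PSC replicates 1 and 4 (adjusted p = 0.0874 and 0.0547) or 3W-PSC replicates 1 to 4 (0.0957, 0.127, 0.0897 and 0.0921) was left out.

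*Tgfbr1* (ENSMUSG00000007613, plus strand, chr4:47353222-47414931), the kinase that phosphorylates SMAD2 and SMAD3, was at 5.44, 6.66, 4.62 and 5.08 CPM (mono-PSCs), at 4.51, 7.11, 11.0 and 3.69 CPM (2W-PSCs) and at 13.3, 11.0, 12.1 and 10.7 CPM (3W-PSCs). Replicate 3 of the 2W-PSCs reached the 3W-PSC range, and the other 3 did not. *Tgfbr1* rose in 3W-PSCs against mono-PSCs (log2 fold change 1.10, SE 0.264, adjusted p = 0.00493). Against 2W-PSCs the value was 0.84 (SE 0.342, adjusted p = 0.145), and without 2W-PSC replicate 3 it was 1.22 (adjusted p = 0.0322).

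*Tgfbr2* (ENSMUSG00000032440, minus strand, chr9:116084293-116175360), which binds the ligand first, spread widely within cultures. It was at 57.9, 24.3, 16.3 and 29.8 CPM (mono-PSCs), at 17.5, 6.87, 25.2 and 16.4 CPM (2W-PSCs) and at 18.3, 22.0, 32.1 and 18.6 CPM (3W-PSCs). The 3 cultures overlapped, with the highest value in mono-PSC replicate 1 and the lowest in 2W-PSC replicate 2. No comparison passed, and in 2W-PSCs against mono-PSCs its log2 fold change was -0.94 (SE 0.418, adjusted p = 0.648).

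Set against all genes, 2 of the 10 passed in 2W-PSCs against mono-PSCs, *Ltbp2* and *Ltbp3*, both higher, where 0.839% of 11199 genes tested were called higher and 0.152% lower. In 3W-PSCs against 2W-PSCs 3 were higher, *Ltbp1*, *Ltbp2* and *Tgfbr3*, and 1, *Tgfb2*, was lower, beside 5.73% and 4.95% of 11513 genes. In 3W-PSCs against mono-PSCs 6 were higher and 1 lower, beside 13.4% and 13.0% of 11551 genes. The counts against mono-PSCs include *Ltbp2*, which passed the filter there only through the co-cultured PSCs and so had to differ. The cultures did not overlap in CPM for 3, 5 and 6 of the 10, against 5.73%, 21.3% and 25.9% of all genes tested. The median log2 fold change over the 10 was 0.57, 0.35 and 0.99, and over all genes tested 0.02, 0.0025 and 0.012. Without 2W-PSC replicate 2 the first count was 4 and the second 5. The 10 genes were chosen with earlier results of these data known, so these counts describe them and support nothing further.

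The share of each gene in the counts of its role does not depend on scaling between libraries. Within the ligands, the share of *Tgfb2* averaged 68.0% ± 5.49 (SD, n = 4) in mono-PSCs, 62.1% ± 16.9 in 2W-PSCs and 44.3% ± 8.15 in 3W-PSCs. The share of *Tgfb3* averaged 19.2% ± 5.36, 27.6% ± 14.9 and 36.1% ± 3.63, and that of *Tgfb1* 12.8% ± 2.17, 10.3% ± 6.08 and 19.6% ± 5.31. The ligand counts of 3W-PSCs were spread more evenly over the 3 genes than those of mono-PSCs.

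Within the LTBPs, *Ltbp3* held 59.5% ± 3.08 of the counts in mono-PSCs, 59.5% ± 4.98 in 2W-PSCs and 39.6% ± 1.002 in 3W-PSCs (SD, n = 4). *Ltbp2* held 1.43% ± 0.547, 4.72% ± 1.70 and 18.6% ± 4.54, and the cultures did not overlap. The ratio of *Ltbp1* to *Ltbp3* counts was 0.581 ± 0.0692 in mono-PSCs, 0.556 ± 0.121 in 2W-PSCs and 1.02 ± 0.0671 in 3W-PSCs, and its range in 3W-PSCs, 0.973 to 1.12, lay above those of the other cultures, which overlapped.

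Within the receptors, *Tgfbr2* averaged 62.1% ± 10.1 of the counts in mono-PSCs, 50.3% ± 5.05 in 2W-PSCs and 36.4% ± 6.24 in 3W-PSCs (SD, n = 4). *Tgfbr3* averaged 25.8% ± 7.67, 26.1% ± 13.1 and 44.4% ± 5.12. The ratio of *Tgfbr3* to *Tgfbr2* counts was 0.215 to 0.609 (mono-PSCs), 0.214 to 0.853 (2W-PSCs) and 0.813 to 1.44 (3W-PSCs), where 3W-PSCs met 2W-PSCs at the edge of their ranges.

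**Figure D3:**
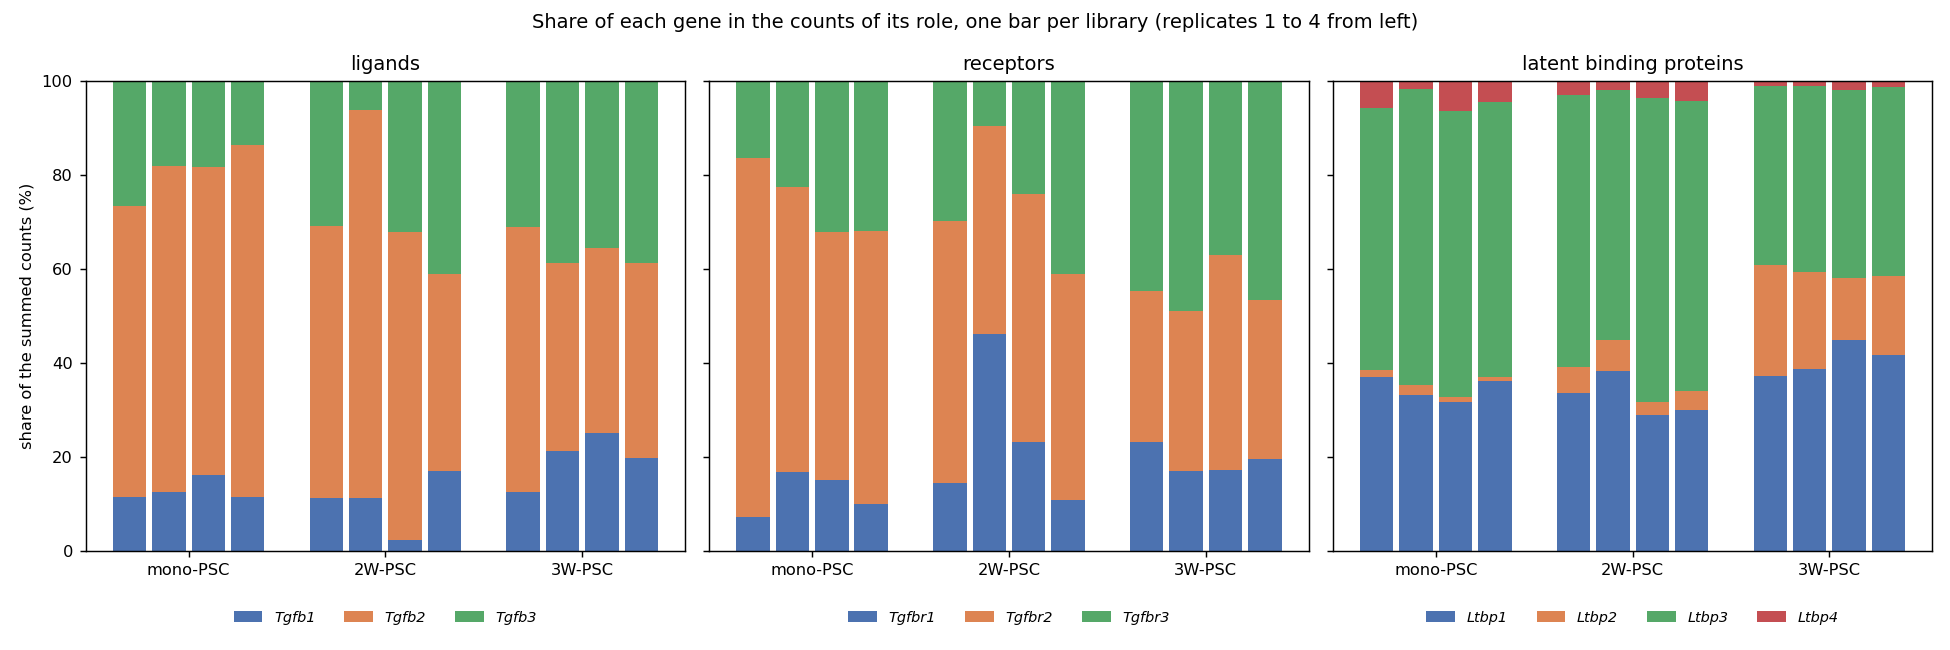
Share (%) of each gene in the summed counts of its role, with 1 bar for each of the 12 libraries and replicates 1 to 4 from the left. In 3W-PSCs *Tgfb2* averaged 44.3% of ligand counts, *Tgfbr2* 36.4% of receptor counts and *Ltbp3* 39.6% of LTBP counts, against 68.0%, 62.1% and 59.5% in mono-PSCs.

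A further 83 genes of the pathway were grouped by role, of which 65 were tested in 2W-PSCs against mono-PSCs and 69 in each other comparison. In 2W-PSCs against mono-PSCs 5 of them rose by edgeR and the others did not pass, and with the replicate number as a block 8 passed. Those 5 were 7.69% of the genes tested, beside 0.839% of all genes. In 3W-PSCs against 2W-PSCs 7 rose (10.1%) and 4 fell (5.80%), beside 5.73% and 4.95% of all genes, so the falls were near the share over all genes. Between 3W-PSCs and mono-PSCs 26 rose (37.7%) and 5 fell (7.25%), beside 13.4% and 13.0%. The rises in both comparisons of 3W-PSCs include *Inhbb* and *Acvr1b*, and the falls against mono-PSCs include *Fmod*. Those genes passed the filter on low counts there only through the culture where they were high, and so had to differ. The counts of each list given next are to be set beside the same shares. Their median log2 fold changes were 0.23, 0.12 and 0.35, beside medians of 0.02, 0.0025 and 0.012 over all genes. Without 2W-PSC replicate 2 the first and second totals were 9 and 19.

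Of 27 genes for holding, tethering and freeing latent TGF-β, 20 to 21 were tested. *Lrrc32*, which encodes GARP, a cell surface anchor of latent TGF-β, rose in 3W-PSCs to 39.9 CPM from 10.4 CPM (2W-PSCs) (log2 fold change 1.93, SE 0.323, adjusted p = 0.00422) and from 6.29 CPM (mono-PSCs). *Itgb3*, the β3 chain of an integrin that binds latent TGF-β, fell in 3W-PSCs against 2W-PSCs from 9.97 to 1.80 CPM (log2 fold change -2.44, adjusted p = 0.0166). *Thbs2*, which encodes thrombospondin-2, rose in 2W-PSCs against mono-PSCs from 12.9 to 62.1 CPM (log2 fold change 2.27, SE 0.252, adjusted p = 5.77e-04). So did *Itgb5*, the β5 integrin chain (0.93, SE 0.182, adjusted p = 0.0298). *Thbs1*, which encodes thrombospondin-1, did not pass there (adjusted p = 0.724). No other gene of this list passed in those comparisons. In 3W-PSCs against mono-PSCs 9 rose, among them *Lrrc32* (2.64), *Thbs2* (2.53), *Itga5* (1.33) and *Plat* (1.26), and *Ctsd* fell (-0.56).

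Of 17 co-receptors and modulators, 13 were tested. *Nrp2*, a neuropilin, rose in 3W-PSCs against 2W-PSCs from 36.3 to 116 CPM (log2 fold change 1.68, SE 0.190, adjusted p = 4.14e-04). *Dcn*, the proteoglycan decorin, which binds TGF-β, rose in 2W-PSCs against mono-PSCs by 0.95 (adjusted p = 0.0329) and fell in 3W-PSCs against 2W-PSCs by 0.98 (adjusted p = 0.0262). In 3W-PSCs against mono-PSCs 6 rose, led by *Nrp2* (2.18) and *Acvr1* (1.32). *Fmod*, fibromodulin, fell there from a mean of 8.71 CPM to 0.0650 CPM (adjusted p = 9.51e-07). It passed the filter on low counts in that comparison only through the mono-PSC libraries, where it was high, and so had to differ.

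**Figure D4:**
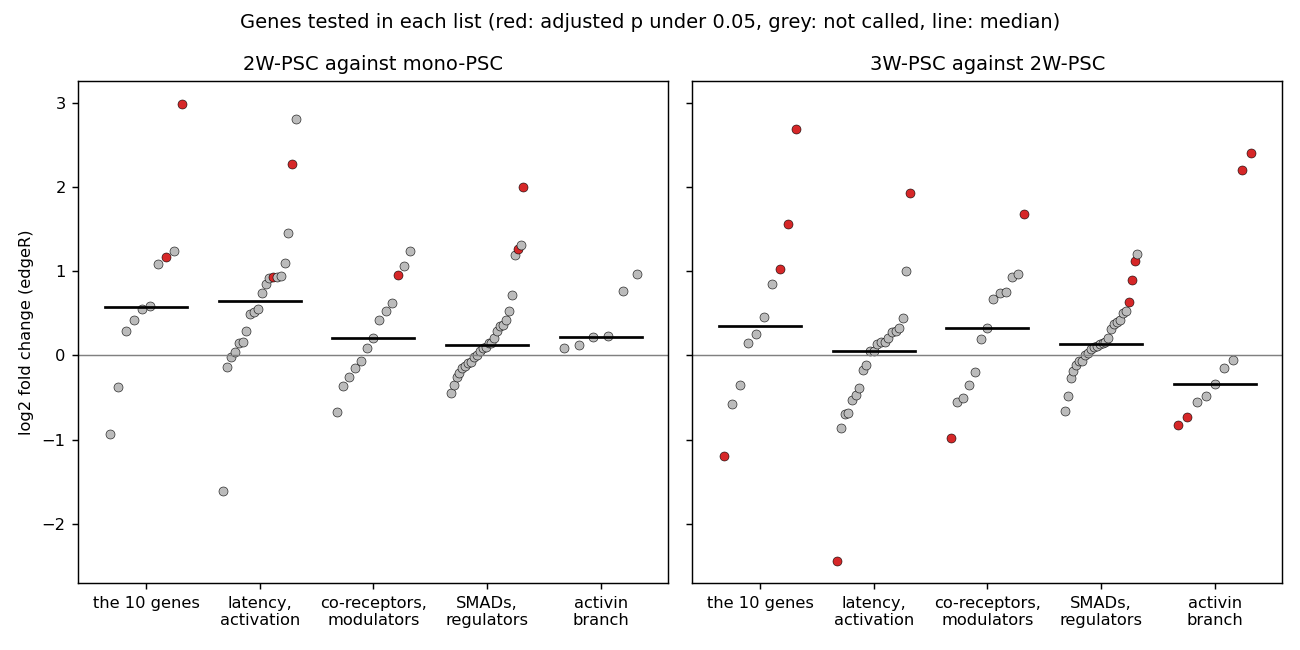
Log2 fold change (y axis) of the genes tested among the 10 described here and in 4 lists of other pathway genes, for 2W-PSCs against mono-PSCs and 3W-PSCs against 2W-PSCs. Red points passed an adjusted p of 0.05, and the line is the median of each list, which for the 10 genes was 0.57 and 0.35.

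All 26 SMADs and their regulators were tested. In 2W-PSCs *Pmepa1* (log2 fold change 2.00, SE 0.316, adjusted p = 0.00776) and *Skil* (1.26, SE 0.203, adjusted p = 0.00834), both inhibitors that TGF-β is known to induce, rose against mono-PSCs. In 3W-PSCs against 2W-PSCs *Smurf1* (1.13), which marks SMADs and receptors for degradation, *Smad7* (0.89), the inhibitory SMAD, and *Smad1* (0.63) rose. In 3W-PSCs against mono-PSCs 9 rose, led by *Pmepa1* (2.01), *Smad7* (1.59), *Smad6* (1.57) and *Tgif1* (1.53), and *Smad2* (-0.90) and *Nedd4l* (-0.64) fell.

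Of the 13 genes of the activin branch, which shares SMAD2 and SMAD3 with TGF-β, 6 were tested in 2W-PSCs against mono-PSCs, where the lowest adjusted p was 0.138, that of *Fstl1*. Of 9 tested in 3W-PSCs against 2W-PSCs, *Inhbb* (log2 fold change 2.41), a subunit of activin B, and *Acvr1b* (2.21), a type I activin receptor, rose, while *Fstl1* (-0.82) and the activin-binding *Fstl3* (-0.73) fell. *Inhbb* averaged 8.38 CPM against 1.54 CPM and *Acvr1b* 4.90 CPM against 0.995 CPM, and both were too low to be tested in 2W-PSCs against mono-PSCs. They passed the filter on low counts only through the 3W-PSC libraries, where they were high, and so had to differ.

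Transcripts grouped here as TGF-β response genes, not all of which TGF-β is known to raise in fibroblasts, moved in both directions. Of 23 tested, 4 (17.4%) rose in 2W-PSCs against mono-PSCs, beside 0.839% of all genes. They were *Tagln* (log2 fold change 2.73) and *Acta2* (2.16) of the contractile apparatus, and *Id1* (1.61) and *Id2* (1.10). In 3W-PSCs against 2W-PSCs 6 (26.1%) fell, beside 4.95% of all genes, among them *Tagln* (-2.97), *Acta2* (-2.55) and *Col3a1* (-1.74). There 3 (13%) rose, beside 5.73%, namely *Klf10* (1.36), *Junb* (1.30) and *Sphk1* (0.99). In 3W-PSCs against mono-PSCs 10 (43.5%) rose, beside 13.4% of all genes, led by *Snai1* (2.89), *Klf10* (2.34), *Postn* (2.32) and *Ctgf* (2.16). Only *Col3a1* (-1.95) fell there (4.35%), beside 13.0%. *Tagln*, *Acta2* and *Tgfb2* were lower in 3W-PSCs than in 2W-PSCs, whereas *Ltbp1*, *Ltbp2* and *Tgfbr3* were higher. *Tpm1*, a further contractile gene of this list, did not pass there (adjusted p = 0.171 by edgeR). The call of *Tgfbr3* held in 2 of 8 edgeR fits that left out 1 library and was lost with the replicate block (adjusted p = 0.0803).

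The 5 genes whose log2 CPM followed that of *Ltbp2* most closely over the 12 libraries, of 8699 with a mean above 3 on the log2 scale, were *Hmga2* (Pearson r = 0.987), *Prrx1* (0.986), *Grem1* (0.978), *Ddx60* (0.974) and *Ifi204* (0.966). The 12 points fall into the 3 cultures, so r mostly reflects the order of the culture means. *Hmga2*, a chromatin protein, averaged 76.8, 269 and 776 CPM (mono-PSCs), 2W-PSCs and 3W-PSCs. *Grem1*, which encodes the BMP antagonist gremlin, averaged 75.2, 265 and 560 CPM.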

How the data were processed

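RNA of sorted PSCs was measured in 12 libraries, 4 for each of 3 cultures, with groups taken from the labels. Per the labels and the study's methods, the authors prepared QuantSeq 3′ libraries, ran FastQC, mapped reads to GRCm38 by STAR and obtained gene counts from featureCounts on the Ensembl annotation. Although the study's methods describe these as normalised, each deposited value is an integer and library totals are unequal, so the table was treated as raw counts per gene. Strand setting and molecular identifiers are not given in the sources used here, so PCR copies may be included. Depth ranged from 4561817 to 8093368 counts a library.

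Counts were scaled by TMM and filtered by filterByExpr in edgeR 4.0.16 (R 4.3.3), and cultures were compared in pairs by its quasi-likelihood test with Benjamini-Hochberg adjustment over all genes tested, called at an adjusted p under 0.05. Each fit held the 8 libraries of the cultures compared and a prior count of 0.125. Standard errors were derived from the F statistic, and approximate 95% intervals are 1.96 of them either way. CPM was scaled over all 12 libraries, and the mean CPM of a gene was compared by a two-sided exact permutation test. Same-numbered mono-PSC and 2W-PSC libraries deviated together (correlations of 0.156 to 0.498), although libraries of unlike number reached 0.268. These numbers may therefore pair the libraries. The main fits did not use them, and the fit with the replicate number as a block is given where it changes a result. The p-values measure the spread between these libraries, which the labels call biological replicates.

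The 10 genes, the lists of pathway, response and marker genes and the motifs were chosen with earlier results of these data known. Named were all 10 genes, per list, comparison and direction at most 4 called genes with the largest change, the defining and some further PSC markers (the latter chosen after their values were seen), and the 5 genes most alike to *Ltbp2*. Alternatives were DESeq2's size factors, other filters, all 12 libraries in one fit, the replicate block, DESeq2 1.42.0, a log2 fold change above 1, glmTreat of edgeR against that fold, library sizes without the most abundant genes, and each library left out. The code was tested on simulated data. Positions come from GENCODE M21 on GRCm38, promoters from RefSeq. A longer κB motif searched first was in no promoter of these genes and was replaced by the shorter one. Some items are not reported here.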

Additional observations from a re-analysis of the deposited data

Results flagged for a closer look

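In 3 of the 30 sets of 4 libraries (10 genes in 3 cultures), 1 library lay far from the other 3 by Dixon's criterion, which chance alone passes in about 1 in 20 such sets. *Tgfb3* was at 11.4 CPM in mono-PSC replicate 1, where the nearest of the others was at 5.68 CPM. *Tgfbr3* was at 31.6 CPM in 3W-PSC replicate 2, with the nearest at 26.1 CPM. *Ltbp4* was at 6.49 CPM in 3W-PSC replicate 3, with the nearest at 4.03 CPM.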

How the results depend on the processing

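The calls of *Ltbp2* and *Ltbp3* in 2W-PSCs against mono-PSCs, of *Ltbp1*, *Ltbp2* and *Tgfb2* in 3W-PSCs against 2W-PSCs, and of *Ltbp1*, *Ltbp2*, *Ltbp3*, *Tgfbr1* and *Tgfbr3* in 3W-PSCs against mono-PSCs held under every other normalisation, filter, tool, block and left-out library in which the gene was tested, other than glmTreat, whose counts are given below for each comparison. A minimum of 10 counts in every library removed *Ltbp2* from the fits with mono-PSCs by its construction. Of the 10 genes, 1 passed in 2W-PSCs against mono-PSCs with that filter and 1 with glmTreat, 2 to 4 with a library left out, and 2 with the replicate block. With glmTreat, which tests for more than a 2-fold change, 1 passed in 3W-PSCs against 2W-PSCs and 2 in 3W-PSCs against mono-PSCs. Same-numbered 3W-PSC libraries had correlations of -0.057 to 0.243 with 2W-PSCs and -0.050 to 0.225 with mono-PSCs. These overlap both the values of unlike numbers and those between mono-PSCs and 2W-PSCs, so they cannot tell whether the numbers pair 3W-PSCs. With the block 3 of the 10 passed in 3W-PSCs against 2W-PSCs and 7 in 3W-PSCs against mono-PSCs. *Tgfbr3* was lost in 3W-PSCs against 2W-PSCs (adjusted p = 0.0803). In these 2 comparisons 3 to 5 and 5 to 7 passed with a library left out.

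Over all genes, calls in 2W-PSCs against mono-PSCs numbered 111, and 177 without a filter, 57 with the minimum of 10 counts, 262 with all 12 libraries, 275 with DESeq2, 41 with glmTreat, 135 with the block and 61 to 233 with a library left out (63 without mono-PSC replicate 3, 61 without mono-PSC replicate 4, 64 without 2W-PSC replicate 1, 61 without 2W-PSC replicate 4 and 233 without 2W-PSC replicate 2). In 3W-PSCs against 2W-PSCs they numbered 1230, and 752 with the block, 672 with a log2 fold change above 1, 132 with glmTreat and 497 to 2107 with a library left out (2107 without 2W-PSC replicate 2, 666 without 2W-PSC replicate 4, and 550, 497, 750 and 667 without 3W-PSC replicates 1 to 4). In 3W-PSCs against mono-PSCs they numbered 3054, and 1380 with a log2 fold change above 1, 487 with glmTreat, 3092 with the block and 2228 to 4266 with a library left out.

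Of the other pathway genes, the 5 calls in 2W-PSCs against mono-PSCs became 9 without a filter, 15 with all 12 libraries, 8 with the block, 15 with DESeq2, 3 with a log2 fold change above 1 and 1 with glmTreat, and 3 to 9 with a library left out, where each library but 2W-PSC replicate 2 gave 3. The 11 in 3W-PSCs against 2W-PSCs became 6 and 2 with the last pair of settings and 6 to 19 with a library left out (19 without 2W-PSC replicate 2, 6 and 7 without 3W-PSC replicates 1 and 2, 9 with the block). The 31 in 3W-PSCs against mono-PSCs became 18 and 7 with that pair, 34 with the block and 26 to 36 with a library left out.

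No called gene of the 10 changed direction under any setting. Uncalled values changed sign in 3 cases. *Tgfbr1* in 2W-PSCs against mono-PSCs ranged from -0.0935 to 0.477 with a library left out, *Tgfb1* in 3W-PSCs against 2W-PSCs from -0.0987 to 0.591, and *Ltbp4* in 3W-PSCs against mono-PSCs from -0.359 to 0.129, and was 0.0705 with the block. The cause of these changes was not tested. Mean levels in CPM moved by more than their SD in 14 recalculations, with unscaled CPM or without the most abundant genes in the library sizes, upwards in all but 1 of these. Counts of 6 to 82 for *Ltbp4*, *Tgfb1* and, in mono-PSCs, *Ltbp2* limit the precision of their values.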
